A study of Mus musculus with 10 samples.

Results

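Cholesterol and long-chain fatty acids are built from cytosolic acetyl-CoA, and the genes of both routes were examined here in mouse embryonic fibroblasts that had lost a subunit of SWI/SNF, a complex that moves nucleosomes. A list of 33 genes was used, covering the mevalonate steps, the steps from squalene to cholesterol, the sterol sensing machinery, sterol transport and fatty acid synthesis and desaturation. Members were the probe sets whose single symbol in the annotation of the array was one of these genes, under its current or an older name. They came to 63 of 22690 probe sets and covered 32 genes, of 12393 genes with such a probe set, and Insig1 was not analysed here. Of these, 56 probe sets of all 32 genes were among the 14504 bright enough to be tested. The 7 dim ones belonged to Acly, Fdft1, Cyp51, Fdps and Lss, each of which also had a brighter probe set.

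Expression was measured on 10 arrays of total RNA from primary fibroblasts taken from E13.5 embryos of a mixed C57BL/6 and 129 background. The Snf5-/- group had 3 arrays of cells lacking Snf5, the core subunit encoded by Smarcb1. The Brg1-/- group had 4 arrays of cells lacking Brg1, the ATPase encoded by Smarca4, and the wild type (WT) group had 3 arrays. Per the labels' protocols, cells of all 3 groups, WT included, were infected with a retrovirus carrying Cre recombinase, and puromycin (2.5 ug/ml) was used for selection. The labels do not state whether the arrays of a group came from separate embryos or cultures, so p-values measure only the spread between these arrays, which may be technical. The RNA was of whole cultures, in which fewer cells of a type and less RNA per cell cannot be told apart.

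Sterol synthesis runs from acetyl-CoA through mevalonate and squalene to lanosterol, whose trimming and desaturation give cholesterol. When sterols in the endoplasmic reticulum are scarce, Scap escorts the SREBP factors, products of Srebf1 and Srebf2, to the Golgi for cleavage, and the freed factors enter the nucleus and switch on the pathway's genes. Insig proteins hold Scap back when sterols are plentiful, and SREBP-1 also drives the enzymes that make and desaturate fatty acids.

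SREBP proteins bind sterol regulatory elements, and the factor NF-Y often binds CCAAT boxes beside them. RefSeq promoter windows on GRCm38.p6, from 250 bases before to 50 bases after the transcription start, were at hand for 25 of the genes, in 33 windows. The letters CCAAT, on either strand, stood in windows of 20 of these 25 genes (80%), against 41.1% of all 27025 genes. Counted by window, they stood in 63.6% of the windows of these genes, against 37.4% of the 32851 windows of all genes. GGGCGG, an Sp1-type box, stood in 75.8% of the genes' windows and in 35.7% of all windows. TCACNCCAC was found in Hmgcs1 only, and occurs in 1.24% of all windows. TCACCCCA was found in Hmgcs1 and Srebf2, and occurs in 1.56% of all windows. Both matches in Hmgcs1 begin at base -137 and overlap. These letters were chosen with matches in view, and a match is a description of the window and not a measured binding site. Windows are shown for 4 enzymes whose probe sets passed the test below and for Srebf2, which carries the other TCACCCCA. They run 5′ to 3′ on the gene's strand, and capitals mark TCACNCCAC, TCACCCCA and CCAAT or its complement ATTGG.
Hmgcs1 (plus strand, chr13:119690101-119690400): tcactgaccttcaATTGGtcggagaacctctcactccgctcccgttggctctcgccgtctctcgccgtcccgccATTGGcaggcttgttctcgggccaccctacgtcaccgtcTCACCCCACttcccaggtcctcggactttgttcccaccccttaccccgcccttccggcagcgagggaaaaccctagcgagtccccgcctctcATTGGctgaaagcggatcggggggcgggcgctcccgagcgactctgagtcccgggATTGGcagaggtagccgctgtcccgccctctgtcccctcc
Mvk (plus strand, chr5:114444019-114444318): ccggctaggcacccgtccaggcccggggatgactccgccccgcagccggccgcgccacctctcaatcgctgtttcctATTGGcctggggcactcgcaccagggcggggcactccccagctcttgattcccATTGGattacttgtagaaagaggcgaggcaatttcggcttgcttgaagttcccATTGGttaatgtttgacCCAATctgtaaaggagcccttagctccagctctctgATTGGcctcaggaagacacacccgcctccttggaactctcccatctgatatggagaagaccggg
Lss (plus strand, chr10:76531355-76531654): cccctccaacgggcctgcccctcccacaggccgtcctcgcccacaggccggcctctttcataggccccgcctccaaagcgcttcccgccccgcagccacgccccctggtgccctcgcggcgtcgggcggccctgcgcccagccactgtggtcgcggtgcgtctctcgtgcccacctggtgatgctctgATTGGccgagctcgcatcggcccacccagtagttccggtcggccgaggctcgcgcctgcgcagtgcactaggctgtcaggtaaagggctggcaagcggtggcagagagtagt
Cyp51 (minus strand, chr5:4104648-4104947): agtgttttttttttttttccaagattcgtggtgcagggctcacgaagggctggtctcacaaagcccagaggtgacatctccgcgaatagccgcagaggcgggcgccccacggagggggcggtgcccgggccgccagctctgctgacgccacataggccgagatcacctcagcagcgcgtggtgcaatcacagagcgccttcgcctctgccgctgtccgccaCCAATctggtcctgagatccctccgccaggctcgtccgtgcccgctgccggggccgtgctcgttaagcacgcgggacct
Srebf2 (plus strand, chr15:82147019-82147318): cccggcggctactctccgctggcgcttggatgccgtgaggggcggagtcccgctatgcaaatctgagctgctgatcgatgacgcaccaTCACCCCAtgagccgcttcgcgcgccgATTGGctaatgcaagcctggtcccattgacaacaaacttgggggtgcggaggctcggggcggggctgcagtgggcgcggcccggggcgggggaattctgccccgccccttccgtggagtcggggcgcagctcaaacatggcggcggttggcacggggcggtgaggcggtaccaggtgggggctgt
Mvk held 5 CCAAT boxes and Hmgcs1 held 4, whereas Lss, Cyp51 and Srebf2 held 1 each.

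The deposited arrays did not share a level, with median intensity between 146 and 234. Levels below are therefore quantile-normalized intensity, and changes are log2 differences of it with the standard error of the limma fit. "Rose" and "fell" mean an adjusted p under 0.05 on that scale, by limma with Benjamini-Hochberg adjustment over all 14504 probe sets. On the deposited scale all tested probe sets shifted together, by a median of -0.3 in Snf5-/- and -0.47 in Brg1-/- cells against WT, so a deposited value is read against that shift. Falls pass more readily there and rises less readily, so a fall that passed on that scale too is no separate support. The labels held up in the targeted genes: Smarcb1 averaged 298 ± 0.883 in Snf5-/- cells (SD, n = 3), against 773 ± 51.5 in WT cells (n = 3), and Smarca4 averaged 516 ± 113 in Brg1-/- cells (n = 4), against 2181 ± 196 in WT cells. All 9 fibroblast markers on the array lay above background on every array, and their summed level was 89941 to 98521 in Snf5-/-, 66736 to 85977 in Brg1-/- and 71934 to 76183 in WT arrays, so Snf5-/- and WT did not overlap. That of 7 epithelial markers was 406 to 847 in Snf5-/-, 385 to 507 in Brg1-/- and 787 to 1010 in WT arrays, so Brg1-/- lay below WT, with 2 of the 7 above background on all arrays and Epcam at or below it on all. Of 6 adipocyte markers, whose sum was 316 to 451 in Snf5-/-, 367 to 451 in Brg1-/- and 425 to 474 in WT arrays, Lep, Adipoq and Cidec were at or below background on all arrays. The summed level of 11 macrophage and leukocyte markers was 2790, 11011 and 3076 in the 3 Snf5-/- arrays, 2327 to 5869 in Brg1-/- and 2535 to 5350 in WT arrays, so Snf5-/- replicate 2 stood apart. The part of these markers in the results was not tested. Results that rest on Snf5-/- replicate 2 are given with and without it.

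In Snf5-/- cells a few of these genes passed the test against WT, in both directions. In all, 7 probe sets of 7 genes rose (Mvk, Pmvk, Dhcr7, Scap, Abca1, Scd1 and Scd2), 5 probe sets of 4 genes fell (Lss, Cyp51, Stard4 and Acly), and 44 did not pass the test. That is 12.5% higher and 8.93% lower, beside 8.71% higher and 8.00% lower among all probe sets tested. The median change of the 56 was -0.24, with 38 negative, beside -0.01 for all tested. On the deposited scale 1 rose and 18 fell with a median of -0.55, beside 2.81% higher and 17.7% lower of all tested and a median of -0.3.

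Brg1-/- cells showed a similar number of changes against WT, again in both directions. A total of 7 probe sets of 6 genes rose (Hmgcs1, Mvk, Pmvk, Ebp, Dhcr7 and Scap), 4 fell (Cyp51, Sc5d, Acly and Fads1), and 45 did not pass. The 12.5% higher and 7.14% lower stand beside 13.0% and 12.1% of all tested, and the median change was 0.08 beside 0. Deposited values gave 2 higher and 21 lower, beside 3.21% higher and 42.8% lower of all tested. In that comparison 23 of the 56 probe sets had opposite signs on the normalized and deposited scales, as had 8 in Snf5-/- against WT. Both comparisons share their WT arrays.

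**Figure D1:**
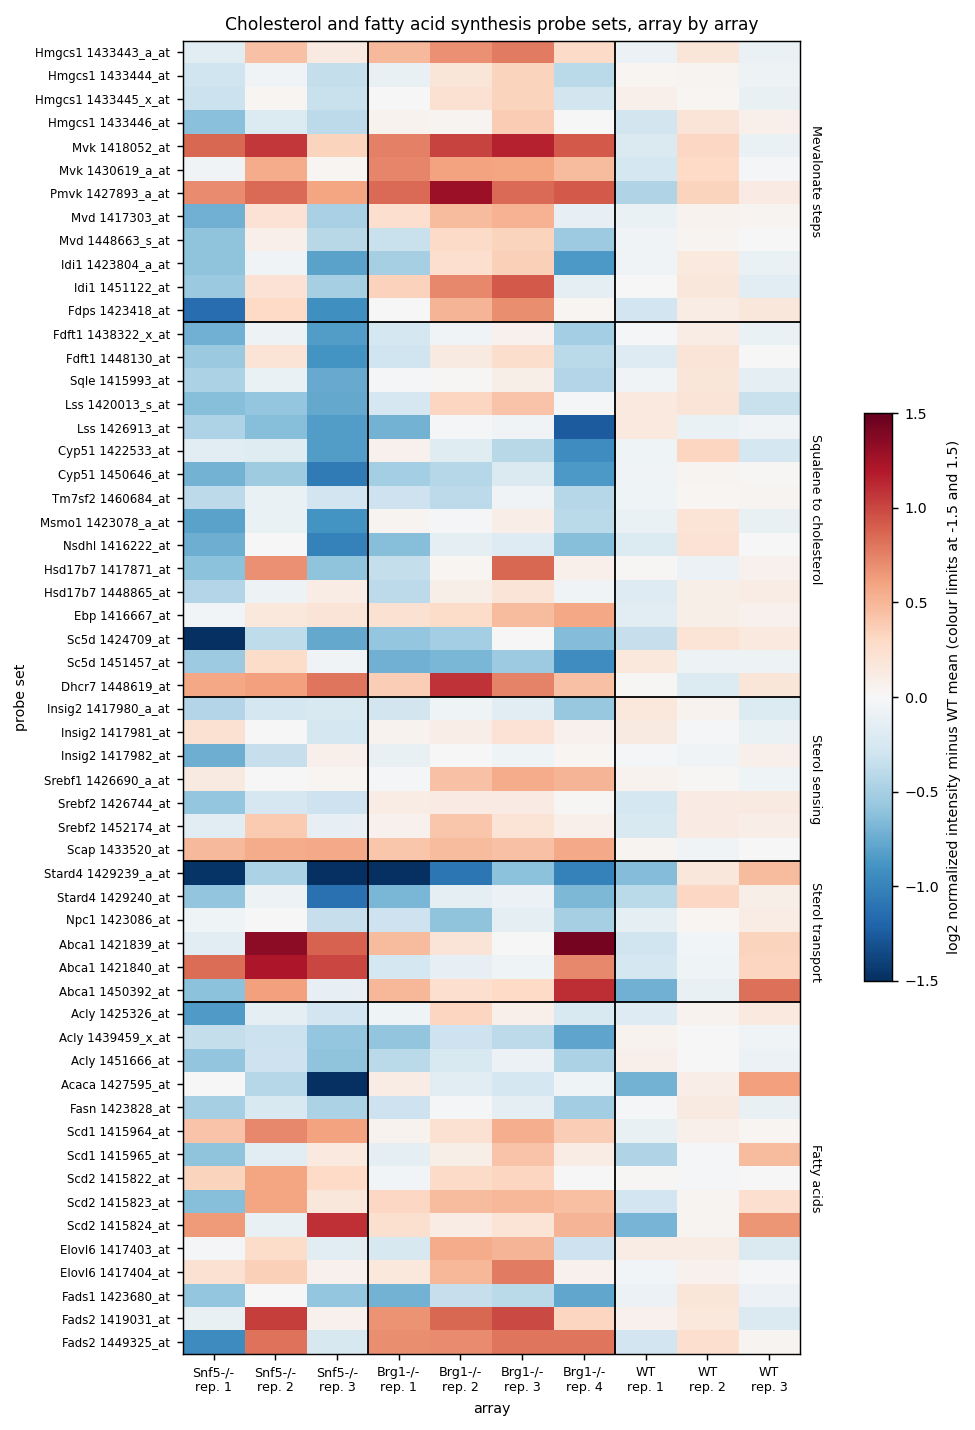
Normalized level of the 56 tested probe sets (rows, grouped by role) in each of the 10 arrays (columns), as log2 difference from the WT mean; red is above and blue below it, with colours ending at -1.5 and 1.5. Mvk (1418052_at), Pmvk, Dhcr7 and Scap are red in all 7 mutant arrays, and most of the other sterol synthesis rows are paler in Snf5-/- replicate 2 than in Snf5-/- replicates 1 and 3.

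The early enzymes did not all move alike. Of 12 mevalonate probe sets, 2 rose in Snf5-/- cells (16.7%, beside 8.71% of all tested) and 0 fell. In Brg1-/- cells 4 probe sets of 3 genes rose (33.3%, beside 13.0%) and 0 fell. The median change was -0.26 in Snf5-/- cells, with 4 positive, and 0.3 in Brg1-/- cells, with 9 positive. All tested probe sets had medians of -0.01 and 0. Mvk and Pmvk, the kinases that phosphorylate mevalonate in turn, were higher in both mutants. Mvk (1418052_at) read 548, 628 and 381 in Snf5-/- cells, 509, 611, 670 and 572 in Brg1-/- cells, and 261, 375 and 282 in WT cells. Each mutant array of Mvk exceeded every WT array. Its change was 0.75 ± 0.20 in Snf5-/- (adjusted p = 0.0237) and 0.96 ± 0.19 in Brg1-/- cells (adjusted p = 0.00305), and 0.48 and 0.52 on the deposited scale, where only the Brg1-/- rise passed (adjusted p = 0.0358). A second Mvk probe set (1430619_a_at) read 221, 337 and 234 in Snf5-/- cells, 379, 347, 345 and 319 in Brg1-/- cells, and 190, 281 and 225 in WT cells. It differed between the groups without overlap only for Brg1-/- against WT, by 0.60 ± 0.18 (adjusted p = 0.0298), while the Snf5-/- value was 0.18 ± 0.19 (adjusted p = 0.569). In Snf5-/- cells the Mvk call was lost without Snf5-/- replicate 1 (adjusted p = 0.0728) or 2 (0.0658) and without WT replicate 1 (0.0824) or 3 (0.0848). The call of the second Mvk probe set in Brg1-/- cells was lost without Brg1-/- replicate 1 (0.0683), 2 (0.0597) or 3 (0.0611) and without WT replicate 1 (0.125) or 3 (0.0838).

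Pmvk read 335, 368 and 309 in Snf5-/- cells, 369, 498, 368 and 388 in Brg1-/- cells, and 149, 257 and 223 in WT cells, again with no overlap of either mutant with WT. It rose by 0.72 ± 0.20 in Snf5-/- (adjusted p = 0.0302) and by 0.98 ± 0.19 in Brg1-/- cells (adjusted p = 0.003). The Brg1-/- rise in Pmvk was 0.57 on the deposited scale and passed (adjusted p = 0.0209), and the Snf5-/- value of 0.48 did not (0.0964). The Pmvk and Mvk (1418052_at) rises in Brg1-/- cells passed with any 1 array left out. In Snf5-/- cells the Pmvk call was lost without Snf5-/- replicate 1 (adjusted p = 0.07) or 2 (0.0697), and without WT replicate 1 (0.0921) or 3 (0.0583).

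Hmgcs1, the synthase that joins acetyl groups ahead of mevalonate, had 4 probe sets, of which 1 passed. That one (1433443_a_at) read 2399, 3643 and 2951 in Snf5-/- cells, 3758, 4336, 4603 and 3278 in Brg1-/- cells, and 2542, 3041 and 2522 in WT cells. All Brg1-/- arrays lay above all WT arrays, and the rise was 0.56 ± 0.15 (adjusted p = 0.0175), though on the deposited scale the value was -0.07 (0.759). The other 3 probe sets of Hmgcs1 changed by 0.00 to 0.12 in Brg1-/- and by -0.41 to -0.21 in Snf5-/- cells, and none passed. The call was lost without Brg1-/- replicate 3 (adjusted p = 0.0526) and without WT replicate 1 (0.0667) or 3 (0.0705).

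The remaining mevalonate enzymes, Mvd, Idi1 and Fdps, passed in neither mutant against WT. Fdps, which makes farnesyl diphosphate, read 1075, 2921 and 1258 in Snf5-/- cells, 2384, 3393, 3874 and 2427 in Brg1-/- cells, and 1955, 2579 and 2676 in WT cells. Snf5-/- replicate 2 stood above both other arrays of its group and above all WT arrays, and the change of -0.59 ± 0.32 did not pass (adjusted p = 0.229). Without that array the change was -1.04 and passed (adjusted p = 0.0075). In Brg1-/- cells Fdps changed by 0.31 ± 0.30 (adjusted p = 0.483). Mvd, the decarboxylase, and Idi1, the isomerase, changed by -0.49 to -0.28 in Snf5-/- and by -0.19 to 0.46 in Brg1-/- cells over 4 probe sets.

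**Figure D2:**
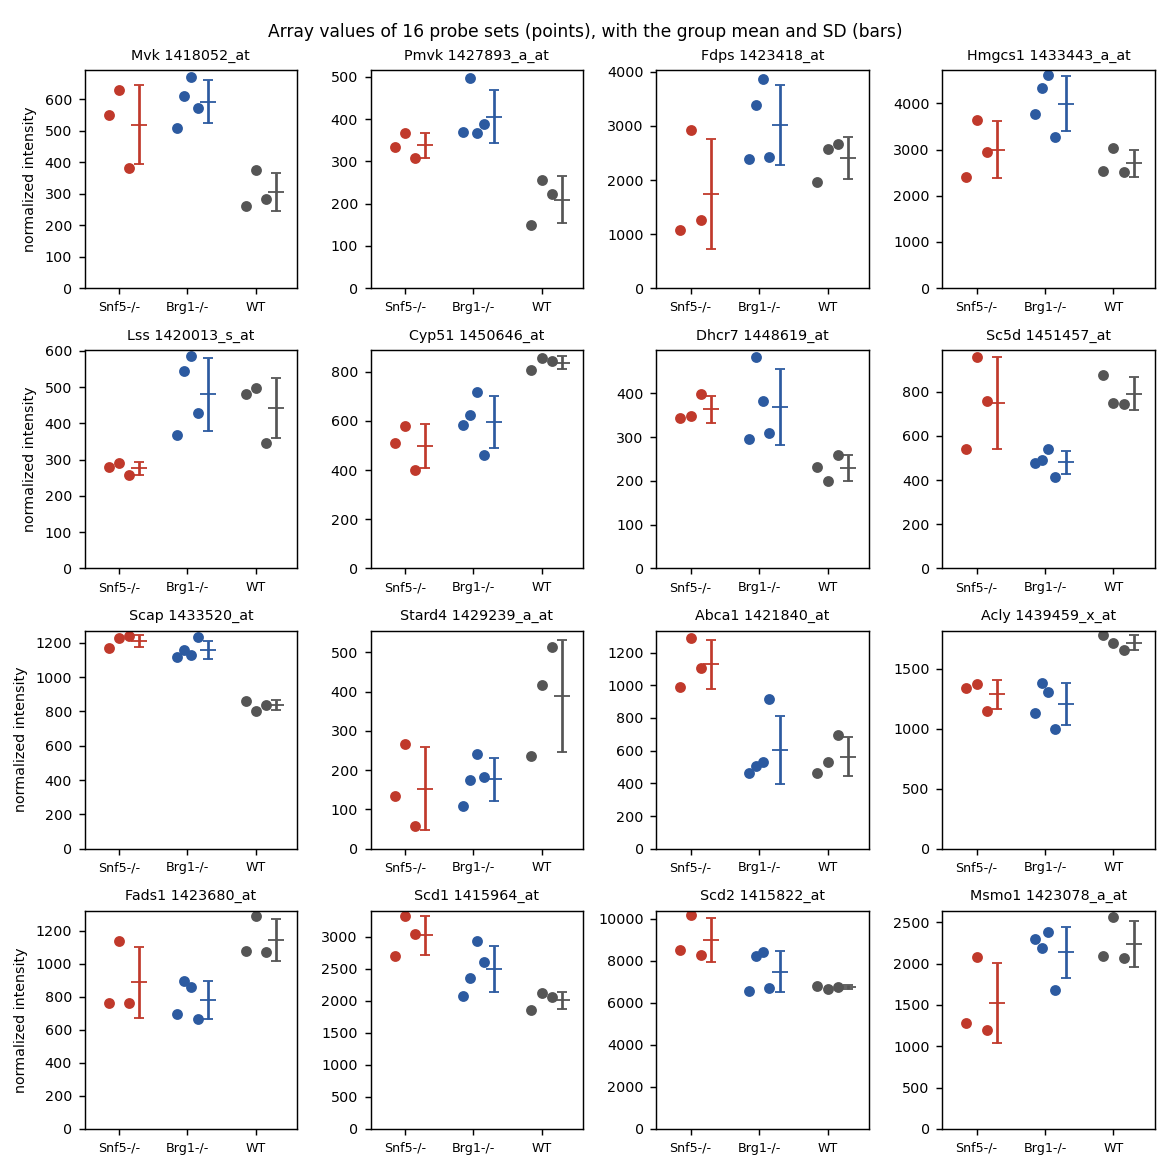
Normalized intensity of 16 probe sets in each array (points, vertical axes from 0), with the mean and SD of each group beside them (Snf5-/- n = 3, Brg1-/- n = 4, WT n = 3). Mvk, Pmvk and Scap lie above WT in every mutant array, Cyp51 lies below, and Fdps and Msmo1 have 1 high Snf5-/- array.

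From squalene to cholesterol, 16 probe sets of 11 genes had a median change of -0.43 in Snf5-/- cells, beside -0.01 for all tested, and 14 of the changes were negative. Of the 16, 2 fell (12.5%, beside 8.00% of all tested) and 1 rose (6.25%, beside 8.71%). Cyp51, the lanosterol demethylase, was lower in both mutants. It read 512, 578 and 400 in Snf5-/- cells, 585, 622, 716 and 460 in Brg1-/- cells, and 805, 856 and 845 in WT cells (1450646_at). Every mutant array lay below every WT array. Cyp51 fell by 0.77 on the log2 scale in Snf5-/- (-0.77 ± 0.17, adjusted p = 0.0111) and by 0.51 in Brg1-/- cells (-0.51 ± 0.16, adjusted p = 0.0383), and both falls passed on the deposited scale. The Snf5-/- fall passed with any 1 array left out. The Brg1-/- fall of Cyp51 was lost without Brg1-/- replicate 1 (adjusted p = 0.0681), 2 (0.0588) or 4 (0.0773), or without any WT array (0.0797 to 0.111). Another Cyp51 probe set (1422533_at) averaged 156 ± 38.2 in Snf5-/-, 160 ± 44.4 in Brg1-/- and 203 ± 42.7 in WT cells, and its changes of -0.39 ± 0.29 and -0.36 ± 0.27 did not pass.

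Lss, which closes the sterol rings to form lanosterol, fell in Snf5-/- cells by 1 of its 2 tested probe sets. That one (1420013_s_at, whose suffix marks probes shared between transcripts) read 279, 291 and 257 in Snf5-/- cells, 367, 545, 585 and 429 in Brg1-/- cells, and 481, 497 and 347 in WT cells. The Snf5-/- arrays lay below all others, and Lss fell against WT (-0.66 ± 0.19, adjusted p = 0.0365), while Brg1-/- cells overlapped WT (0.12 ± 0.18, adjusted p = 0.681). The other (1426913_at) read 81.2, 71.8 and 62.5 in Snf5-/- cells, 68.5, 110, 108 and 46.9 in Brg1-/- cells, and 124, 104 and 108 in WT cells. It did not pass in Snf5-/- (-0.64 ± 0.37, adjusted p = 0.266) or in Brg1-/- cells (-0.50 ± 0.35, adjusted p = 0.322), where the Lss probe sets had opposite signs and neither passed. The third (1420014_at) was too dim to be tested. The Lss fall was lost without Snf5-/- replicate 1 (adjusted p = 0.0779) or 3 (0.0881), and without WT replicate 1 (0.11) or 2 (0.13).

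Dhcr7, a reductase of the last steps to cholesterol, went the other way from Cyp51. It read 343, 349 and 399 in Snf5-/- cells, 296, 484, 383 and 310 in Brg1-/- cells, and 231, 199 and 260 in WT cells, with no overlap of either mutant with WT. Dhcr7 rose by 0.67 ± 0.19 in Snf5-/- (adjusted p = 0.0334) and 0.66 ± 0.18 in Brg1-/- cells (adjusted p = 0.0178), and by 0.40 and 0.23 on the deposited scale without passing there. The Snf5-/- call was lost without Snf5-/- replicate 1 (adjusted p = 0.0609) or 3 (0.0902) and without WT replicate 1 (0.0742) or 2 (0.119), and the Brg1-/- call without WT replicate 2 (0.0801).

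Sc5d, the desaturase that acts just before Dhcr7, differed between its probe sets. One (1451457_at) read 539, 956 and 757 in Snf5-/- cells, 478, 490, 542 and 412 in Brg1-/- cells, and 876, 748 and 746 in WT cells. All Brg1-/- arrays were below all WT arrays, and Sc5d fell there on both scales (-0.72 ± 0.18, adjusted p = 0.0105; deposited -1.21), and with any 1 array left out, where the largest adjusted p was 0.05 after rounding. Snf5-/- cells overlapped WT (-0.11 ± 0.19, adjusted p = 0.736). The other Sc5d probe set (1424709_at) read 73.4, 186 and 142 in Snf5-/- cells, 161, 169, 242 and 154 in Brg1-/- cells, and 190, 278 and 267 in WT cells. Here it was the Snf5-/- arrays that all lay below WT, with a change of -0.95 ± 0.32 (adjusted p = 0.0604), and the Brg1-/- value was -0.44 ± 0.30 (adjusted p = 0.317).

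Ebp, the sterol isomerase, read 604, 692 and 707 in Snf5-/- cells, 726, 754, 865 and 928 in Brg1-/- cells, and 556, 661 and 651 in WT cells. All Brg1-/- arrays exceeded the rest, and Ebp rose by 0.39 ± 0.12 against WT (adjusted p = 0.0372), with a deposited value of -0.09 (0.69). The Ebp call was lost without Brg1-/- replicate 3 (adjusted p = 0.0907) or 4 (0.0791), or without any WT array (0.0651 to 0.146).

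Msmo1, a methyl oxidase acting after Cyp51, missed the threshold in Snf5-/- cells. It read 1282, 2077 and 1201 in Snf5-/- cells, 2297, 2185, 2380 and 1687 in Brg1-/- cells, and 2089, 2561 and 2071 in WT cells. Replicate 2 reached the WT level and the other Snf5-/- arrays did not, giving -0.60 ± 0.20 (adjusted p = 0.0575). Fdft1, the squalene synthase, Sqle, the squalene epoxidase, Nsdhl, Tm7sf2 and Hsd17b7, which reduce and trim the sterol rings, changed by -0.58 to -0.13 in Snf5-/- and by -0.40 to 0.15 in Brg1-/- cells. None of these 7 probe sets passed.

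**Figure D3:**
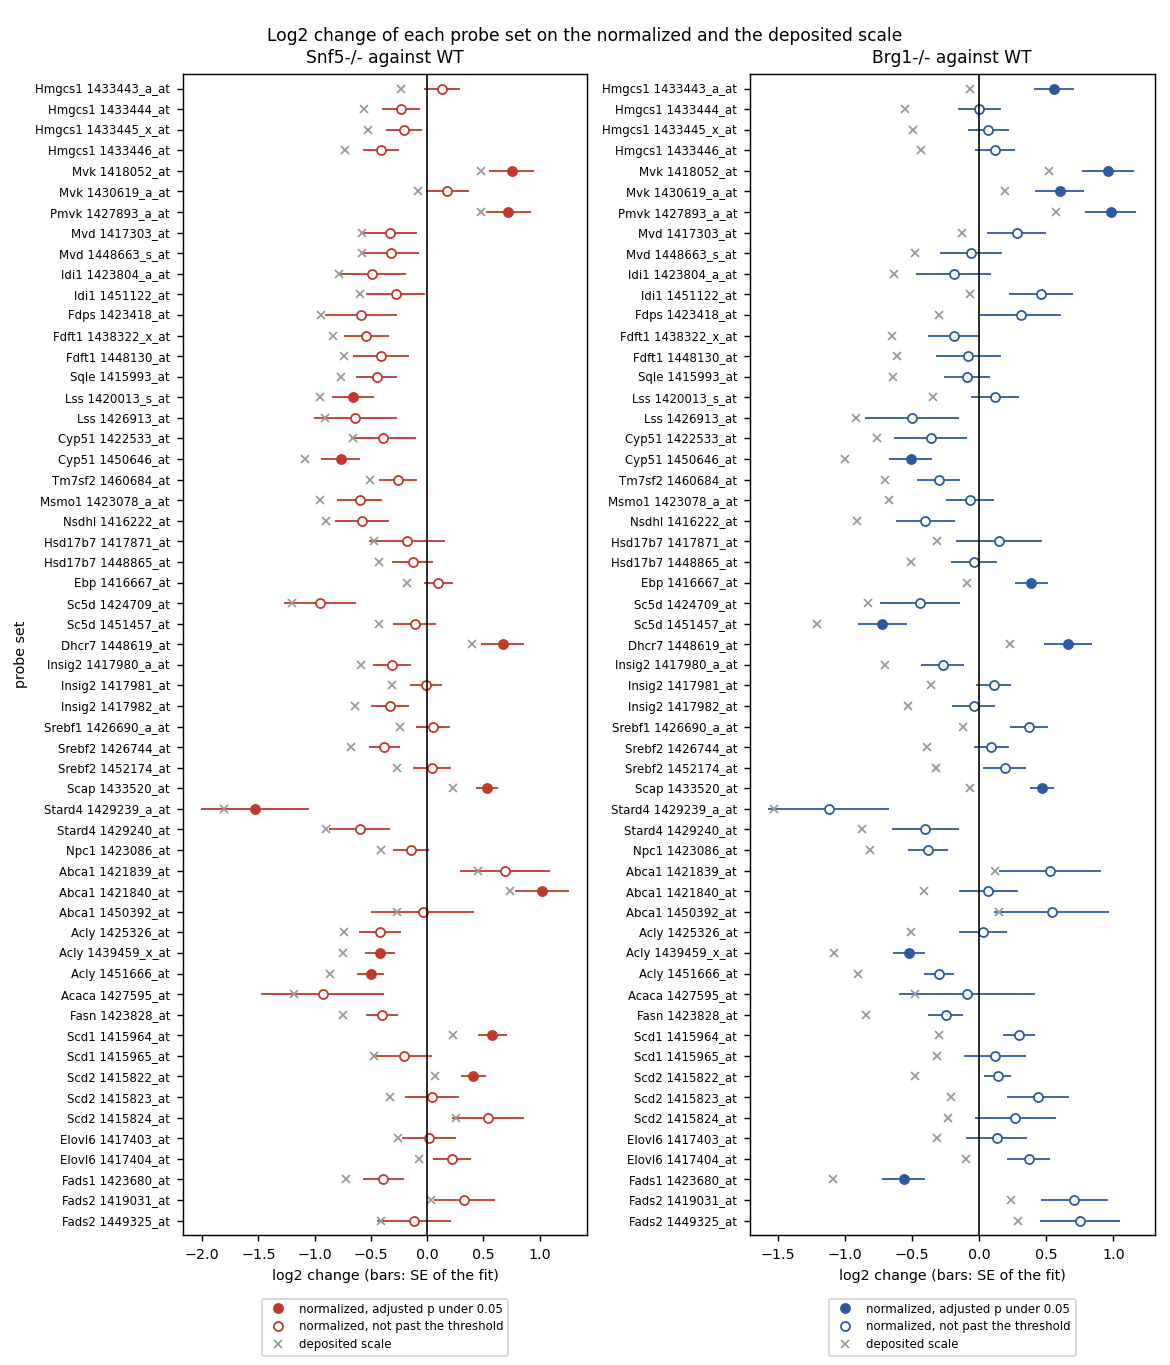
Log2 change of the 56 tested probe sets against WT in Snf5-/- cells (left) and Brg1-/- cells (right), on the normalized scale with the SE of the fit (circles, filled where the adjusted p is under 0.05) and on the deposited scale (crosses). Crosses lie left of the circles throughout, with a median over all tested probe sets of -0.3 and -0.47, and only 6 of the filled points in each panel also passed as crosses.

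Among the sensing genes, Scap rose in both mutants. Scap read 1167, 1227 and 1237 in Snf5-/- cells, 1116, 1157, 1128 and 1235 in Brg1-/- cells, and 862, 804 and 840 in WT cells. Mutant and WT arrays were far from overlapping. Scap rose by 0.53 ± 0.10 in Snf5-/- (adjusted p = 0.0033) and 0.47 ± 0.09 in Brg1-/- cells (adjusted p = 0.00274), and passed with any 1 array left out, but on the deposited scale it was 0.23 in Snf5-/- and -0.07 in Brg1-/- cells and passed in neither. Srebf1, the SREBP-1 gene, changed by 0.05 ± 0.15 in Snf5-/- and 0.37 ± 0.14 in Brg1-/- cells (adjusted p = 0.849 and 0.0717). Srebf2, the SREBP-2 gene, had values of -0.38 ± 0.14 and 0.04 ± 0.17 in Snf5-/- and of 0.09 ± 0.13 and 0.19 ± 0.16 in Brg1-/- cells over its 2 probe sets. The 3 probe sets of Insig2 changed by -0.33 to -0.01 in Snf5-/- and by -0.27 to 0.11 in Brg1-/- cells. These are transcript levels, and SREBP cleavage was not analysed here.

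In sterol transport, Stard4, a carrier of sterol between membranes, had the largest fall of the list. Its probe set 1429239_a_at read 133, 266 and 58.8 in Snf5-/- cells, 108, 175, 242 and 183 in Brg1-/- cells, and 235, 417 and 515 in WT cells. Snf5-/- replicate 2 and Brg1-/- replicate 3 exceeded the lowest WT array, so both mutants overlapped WT. Stard4 fell in Snf5-/- cells (-1.53 ± 0.48, adjusted p = 0.0473), and in Brg1-/- cells the value was -1.12 ± 0.45 (adjusted p = 0.0892). Both passed on the deposited scale, at -1.81 and -1.53. The second Stard4 probe set (1429240_at) averaged 502 ± 177 in Snf5-/-, 563 ± 125 in Brg1-/- and 743 ± 181 in WT cells, with changes of -0.60 ± 0.27 and -0.40 ± 0.25 that did not pass. The Stard4 call was lost in 7 of 10 fits with 1 array left out: without Snf5-/- replicate 1 (adjusted p = 0.0972) or 3 (0.136), Brg1-/- replicate 2 (0.0643), 3 (0.0558) or 4 (0.0584), or WT replicate 2 (0.129) or 3 (0.167).

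Abca1, which exports cholesterol to lipoprotein, was higher in Snf5-/- cells by 1 of 3 probe sets. Probe set 1421840_at read 991, 1289 and 1108 in Snf5-/- cells, 461, 508, 529 and 916 in Brg1-/- cells, and 463, 531 and 694 in WT cells. The Snf5-/- arrays lay above all 7 others, and Brg1-/- replicate 4 came nearest to them. Abca1 rose by 1.02 ± 0.24 against WT (adjusted p = 0.0131) and also on the deposited scale (0.74, adjusted p = 0.0364), whereas Brg1-/- cells were at 0.07 ± 0.22 (adjusted p = 0.856). Without Snf5-/- replicate 2, the array with the high leukocyte markers, the rise was 0.92 (adjusted p = 0.0355), and it was lost only without WT replicate 1 (0.0518). Abca1 probe set 1421839_at read 145, 409 and 298 in Snf5-/- cells, 224, 185, 161 and 438 in Brg1-/- cells, and 131, 157 and 204 in WT cells, and 1450392_at averaged 73.7 ± 32 in Snf5-/-, 107 ± 32.4 in Brg1-/- and 78.8 ± 43.3 in WT cells. Neither passed, with Snf5-/- values of 0.69 ± 0.40 and -0.04 ± 0.46. Npc1, which releases cholesterol from lysosomes, changed by -0.14 ± 0.16 in Snf5-/- and -0.38 ± 0.15 in Brg1-/- cells (adjusted p = 0.596 and 0.0785).

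Of 15 fatty acid probe sets in Snf5-/- cells, 2 of Acly fell (13.3%, beside 8.00% of all tested), 1 each of Scd1 and Scd2 rose (13.3%, beside 8.71%), and 11 did not pass. Acly, which cleaves citrate to acetyl-CoA, read 1957, 2376 and 1941 in Snf5-/- cells, 2229, 2501, 2777 and 2116 in Brg1-/- cells, and 3100, 2961 and 2767 in WT cells (1451666_at). Snf5-/- arrays were all below WT and Acly fell (-0.50 ± 0.12, adjusted p = 0.016), while Brg1-/- replicate 3 reached the lowest WT array and the value of -0.30 ± 0.11 did not pass (adjusted p = 0.0745). Acly 1439459_x_at read 1336, 1371 and 1147 in Snf5-/- cells, 1134, 1384, 1303 and 995 in Brg1-/- cells, and 1777, 1714 and 1656 in WT cells. It fell in both, with changes of -0.42 ± 0.13 in Snf5-/- (adjusted p = 0.0466) and -0.52 ± 0.12 in Brg1-/- cells (adjusted p = 0.00885), with no overlap. All these falls passed on the deposited scale. The third tested Acly probe set (1425326_at) averaged 786 ± 190 in Snf5-/-, 1059 ± 173 in Brg1-/- and 1035 ± 120 in WT cells. Its Brg1-/- value was 0.03 ± 0.18 and turned to -0.51 on the deposited scale. The Snf5-/- fall of Acly 1451666_at was lost without Snf5-/- replicate 1 (adjusted p = 0.0536) or WT replicate 1 (0.056) or 2 (0.055). That of 1439459_x_at was lost without Snf5-/- replicate 1 (0.0768) or 3 (0.124), Brg1-/- replicate 1 (0.0595) or 3 (0.0581), or any WT array (0.103 to 0.121), whereas its Brg1-/- fall passed with any 1 array left out.

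Scd1 and Scd2, the desaturases that make oleic and palmitoleic acid, rose in Snf5-/- cells by 1 probe set each. Scd1 1415964_at read 2700, 3314 and 3039 in Snf5-/- cells, 2079, 2357, 2933 and 2598 in Brg1-/- cells, and 1861, 2114 and 2054 in WT cells. Scd2 1415822_at read 8506, 10179 and 8275 in Snf5-/- cells, 6550, 8243, 8396 and 6705 in Brg1-/- cells, and 6814, 6650 and 6753 in WT cells. Snf5-/- arrays exceeded all WT arrays for both. Scd1 rose by 0.58 ± 0.13 (adjusted p = 0.01) and passed with any 1 array left out, with 0.23 on the deposited scale (0.404). Scd2 rose by 0.41 ± 0.11 (adjusted p = 0.0273), with 0.07 on the deposited scale (0.761), and lost the call without Snf5-/- replicate 2 (0.0774) or any WT array (0.0607 to 0.0796). In Brg1-/- cells the values were 0.30 ± 0.12 for Scd1 (adjusted p = 0.0883) and 0.14 ± 0.10 for Scd2 (0.363), which on the deposited scale were -0.30 and -0.48. The other probe sets, 1 of Scd1 and 2 of Scd2, did not pass in either mutant. Scd1 1415965_at read 251, 339 and 424 in Snf5-/- cells, 347, 405, 513 and 411 in Brg1-/- cells, and 279, 375 and 532 in WT cells. Its Snf5-/- change of -0.21 ± 0.25 (adjusted p = 0.607) had the opposite sign to that of Scd1 1415964_at. Scd2 1415823_at and 1415824_at changed by 0.04 ± 0.24 and 0.54 ± 0.32 in Snf5-/- cells. In Brg1-/- cells these other probe sets ranged from 0.12 to 0.44.

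Fads1, the delta-5 desaturase of polyunsaturated fatty acids, read 765, 1138 and 761 in Snf5-/- cells, 696, 897, 861 and 665 in Brg1-/- cells, and 1075, 1289 and 1071 in WT cells. It fell in Brg1-/- cells, whose arrays all lay below WT (-0.56 ± 0.16, adjusted p = 0.0269; deposited -1.09), and gave -0.39 ± 0.18 in Snf5-/- cells (adjusted p = 0.158). The Brg1-/- fall was lost without Brg1-/- replicate 1 (adjusted p = 0.0645) or 4 (0.0621), or any WT array (0.0537 to 0.113). Its neighbour in the pathway, Fads2, the delta-6 desaturase, had positive values in Brg1-/- cells that did not pass. Fads2 1419031_at read 404, 895 and 457 in Snf5-/- cells, 699, 794, 873 and 547 in Brg1-/- cells, and 457, 487 and 377 in WT cells (Brg1-/- 0.71 ± 0.25, adjusted p = 0.0542). Fads2 1449325_at read 203, 683 and 330 in Snf5-/- cells, 628, 636, 677 and 677 in Brg1-/- cells, and 319, 462 and 399 in WT cells (Brg1-/- 0.75 ± 0.30, adjusted p = 0.0924). For both, all Brg1-/- arrays exceeded WT, and Snf5-/- replicate 2 was the high array of its group. Fasn, the fatty acid synthase, averaged 1626 ± 172 in Snf5-/-, 1818 ± 271 in Brg1-/- and 2146 ± 187 in WT cells, and missed the threshold in Snf5-/- (-0.40 ± 0.14, adjusted p = 0.0631) and in Brg1-/- cells (-0.25 ± 0.13, 0.178). Elovl6, which extends palmitate, changed by 0.02 to 0.37 over both probe sets and both mutants. Acaca, the acetyl-CoA carboxylase, was above background on 2 of 3 Snf5-/- arrays and all others, at 72.5 ± 46.3 in Snf5-/-, 105 ± 11.8 in Brg1-/- and 120 ± 51.5 in WT cells, and changed by -0.93 ± 0.55 in Snf5-/- and by -0.09 ± 0.51 in Brg1-/- cells without passing.

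Set directly against each other, the mutants differed in 2 members. Between Brg1-/- and Snf5-/- cells 1 probe set was higher and 1 lower of 56 (1.79% each), beside 2.10% higher and 1.90% lower of all tested. Deposited values gave 0 higher and 2 lower, beside 0.462% and 3.08%. Lss (1420013_s_at) averaged 481 ± 101 in Brg1-/- and 276 ± 17.2 in Snf5-/- cells, a difference of 0.78 ± 0.18 (adjusted p = 0.0371), with 0.61 on the deposited scale (0.142) and 0.14 ± 0.35 in the other Lss probe set (0.852). Abca1 (1421840_at) averaged 604 ± 210 in Brg1-/- and 1129 ± 150 in Snf5-/- cells, a difference of -0.95 ± 0.22 (adjusted p = 0.0371) that passed on the deposited scale too (-1.16, 0.00959). Each was lost in several fits with 1 array left out. For Lss these were without Snf5-/- replicate 1 (adjusted p = 0.081), 2 (0.0581) or 3 (0.0662), Brg1-/- replicate 2 (0.1) or 3 (0.106), or WT replicate 2 (0.053). For Abca1 they were without Snf5-/- replicate 1 (0.0587), 2 (0.087) or 3 (0.0565), Brg1-/- replicate 1 (0.079), 2 (0.0992) or 3 (0.106), or WT replicate 2 (0.0588).

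For the mevalonate steps, all 12 probe sets had a positive difference between Brg1-/- and Snf5-/- cells, with a median of 0.36, and 0 passed the test. These probe sets belong to 6 genes, share their arrays and are not independent. By array the groups overlapped. The median deviation of the 12 was 0.18 in Snf5-/- replicate 2, above 0.14 and -0.06 in Brg1-/- replicates 1 and 4. The 95% confidence interval reached from 0.26 to 1.55 for Fdps (0.90 ± 0.30, adjusted p = 0.106) and from 0.21 to 1.28 for Idi1 1451122_at (0.74 ± 0.24, 0.106). For Mvk 1418052_at and Pmvk, which rose in both, the intervals of the difference were -0.19 to 0.61 and -0.15 to 0.67. Over all 56 probe sets the median difference was 0.26 on the normalized scale, beside 0.01 for all tested, and 0.09 on the deposited scale, beside -0.18.

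Much of the spread lay between arrays of 1 genotype. Of the 28 sterol synthesis probe sets, Snf5-/- replicate 2 was the highest of its 3 arrays in 23 (82.1%), against 29.8% of all tested probe sets, and in all 12 of the mevalonate steps. Brg1-/- replicates 2 and 3 both exceeded replicates 1 and 4 in 20 (71.4%), against 19.8% of all tested. In WT, replicate 2 was the highest in 20 (71.4%), against 29.4% of all tested. The median deviation of the 28 from their mean over the 10 arrays was -0.38, 0.13 and -0.38 in Snf5-/- replicates 1 to 3, -0.03, 0.26, 0.36 and -0.21 in Brg1-/- replicates 1 to 4, and 0.09, 0.19 and 0.08 in WT replicates 1 to 3. Over all tested probe sets it stayed between -0.02 and 0.03, as quantile normalization, which gives all arrays the same distribution, makes it do. The median SD of the 28 over arrays was 0.34 in Snf5-/-, 0.27 in Brg1-/- and 0.17 in WT cells, beside 0.22, 0.2 and 0.16 for all tested. Among the 15 fatty acid probe sets, Snf5-/- replicate 2 was highest in 12 (80%), Brg1-/- replicates 2 and 3 exceeded 1 and 4 in 10 (66.7%), and WT replicate 2 was highest in 7 (46.7%). The genes share these arrays and are not independent. The arrays named are those that were high in these same probe sets. The shares beside all tested therefore describe the pattern and do not test it.

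**Figure D4:**
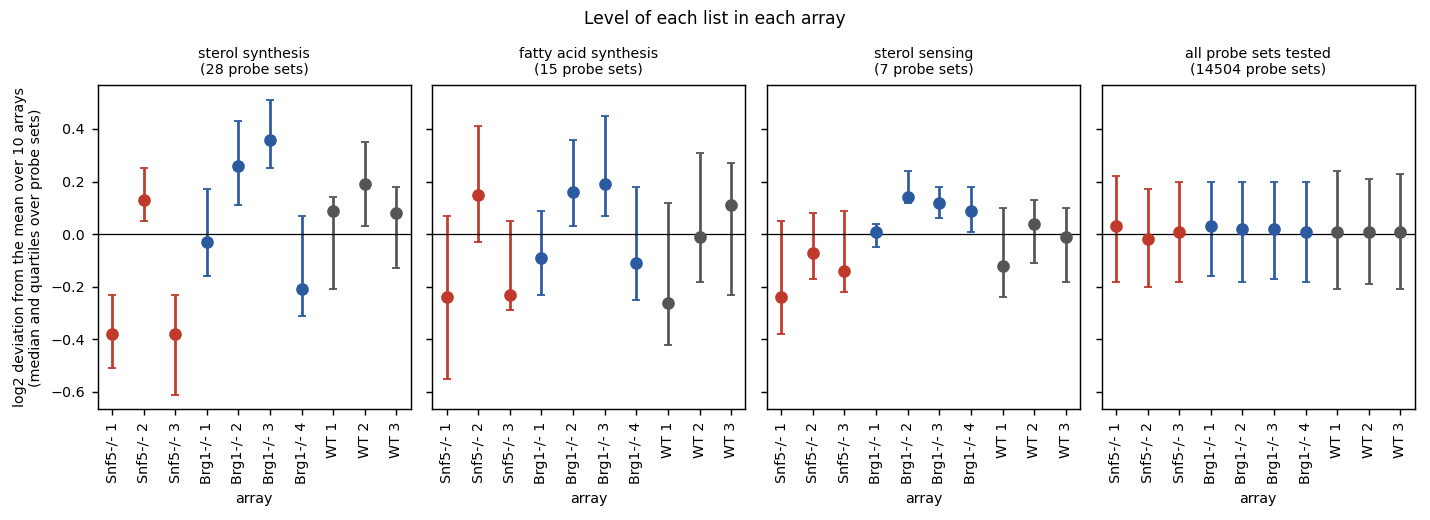
Deviation of each array from the mean over the 10 arrays (log2), as the median (points) and quartiles (bars) over the probe sets of 3 lists and of all 14504 tested. For sterol synthesis, Snf5-/- replicates 1 and 3 sit at -0.38 and replicate 2 at 0.13, and Brg1-/- replicates 2 and 3 are the highest arrays. All tested probe sets stay near 0, as quantile normalization makes them do.

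More members fell in Snf5-/- cells with Snf5-/- replicate 2 left out than with any other array left out. That array was the highest of its group in 82.1% of the sterol synthesis and 80% of the fatty acid probe sets, against 29.8% of all tested. Where it was the highest, leaving it out lowers the Snf5-/- mean by construction. The counts below are no separate evidence of a fall, and the shares of all tested beside them are not like for like. With Snf5-/- replicates 1 and 3 alone, 15 of 55 member probe sets of 12 genes fell against WT (27.3%), beside 8.71% of all 14394 tested, and 4 rose (Scd1, Abca1, Scap and Dhcr7), beside 8.95%. Those that fell in this fit and not with all 10 arrays included Fdps (-1.04, adjusted p = 0.0075), Msmo1 (-0.85, 0.00403), Nsdhl (-0.87, 0.0111), Sqle (-0.62, 0.0297), Fdft1 by both tested probe sets (-0.78, 0.011, and -0.72, 0.0352), Fasn (-0.49, 0.0398) and Fads1 (-0.58, 0.0264). Stard4 then fell by both probe sets (-2.07, 0.00759, and -0.86, 0.0419), and Sc5d 1424709_at fell too (-1.24, 0.0195). Cyp51 (-0.88, 0.0073), Lss (-0.71, 0.0489) and Acly (-0.47, 0.0474, and -0.59, 0.00759) kept their falls, while Mvk (0.60, 0.0658), Pmvk (0.66, 0.0697) and Scd2 (0.31, 0.0774) stayed positive and no longer passed. Between Brg1-/- and Snf5-/- cells, Fdps (1.35, 0.0099), Fads2 1449325_at (1.34, 0.00905), Mvd 1417303_at (0.89, 0.0398) and Msmo1 (0.77, 0.0273) were then higher and 0 lower, beside 1.65% and 1.19% of all tested. With all arrays the count of falls was 5, with Snf5-/- replicate 1 left out 1, with replicate 3 left out 3, and with a Brg1-/- or WT array left out 1 to 6. Msmo1 and Fasn also fell without Brg1-/- replicate 4 (adjusted p = 0.045 and 0.0359). The count of rises was lowest without WT replicate 1, at 2. The high leukocyte markers and the high sterol genes were on the same array, and the link between them was not tested.

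**Figure D5:**
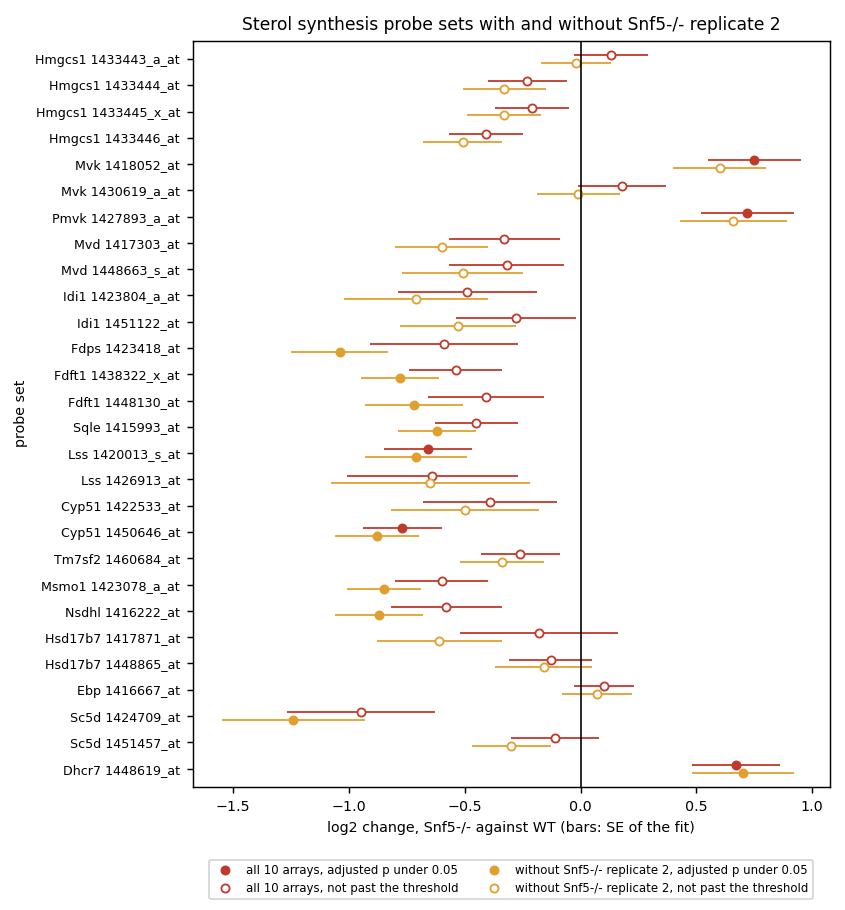
Log2 change of the 28 sterol synthesis probe sets in Snf5-/- cells against WT with all 10 arrays (red) and without Snf5-/- replicate 2 (orange), with the SE of the fit; filled points have an adjusted p under 0.05. Most points move left without that array, and Fdps, Fdft1, Sqle, Msmo1, Nsdhl and the upper Sc5d point become filled. Where that array was the highest of its group, the leftward move is fixed by leaving it out.

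Of 47 other genes of sterol and fatty acid metabolism on a list drawn up beside the members, 34 were on the array and 26 were tested by their brightest probe set. In Snf5-/- cells 3 rose and 3 fell (11.5% each, beside 8.71% and 8.00% of all tested), with a median of -0.03. In Brg1-/- cells 4 rose and 4 fell (15.4% each, beside 13.0% and 12.1%), with a median of -0.12. These shares are near those of all tested probe sets, and the genes below are described one by one, chosen by smallest adjusted p. With deposited values 0 rose and 6 fell in Snf5-/- cells (23.1% lower), beside 2.81% higher and 17.7% lower of all tested. In Brg1-/- cells 0 rose and 15 fell (57.7% lower), beside 3.21% higher and 42.8% lower of all tested. Mid1ip1, which helps acetyl-CoA carboxylase to polymerize, fell most firmly in both. It averaged 753 ± 248 in Snf5-/-, 530 ± 25.3 in Brg1-/- and 1480 ± 135 in WT cells (-1.02, adjusted p = 0.00373, and -1.48, 0.000132), on both scales and with any 1 array left out. Acsl4, which activates arachidonic acid, averaged 321 ± 127 in Snf5-/-, 310 ± 81.9 in Brg1-/- and 626 ± 61 in WT cells (-1.03, 0.0236, and -1.05, 0.0103). Its Snf5-/- call was lost without Snf5-/- replicate 1 (adjusted p = 0.0702) or 3 (0.0754), or any WT array (0.0507 to 0.072).

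Elovl5, an elongase of polyunsaturated fatty acids, rose in Brg1-/- cells. It averaged 2121 ± 99.3 in Brg1-/-, 1498 ± 89.3 in Snf5-/- and 1426 ± 30.9 in WT cells, with changes of 0.57 against WT (adjusted p = 0.000582) and 0.50 against Snf5-/- cells (0.0115), though 0.00 and 0.26 on the deposited scale. Lipa, the lysosomal cholesteryl esterase, rose in Snf5-/- cells, at 1820 ± 487 in Snf5-/- and 1043 ± 126 in WT cells (0.78, adjusted p = 0.00943), with 0.44 on the deposited scale (0.208). Without Snf5-/- replicate 2 the rise in Lipa was 0.88 (0.00769). Erg28, known in yeast as a scaffold of sterol demethylation enzymes, averaged 1021 ± 133 in Snf5-/-, 1141 ± 89 in Brg1-/- and 737 ± 104 in WT cells (0.47, 0.0378, and 0.64, 0.00415). In Snf5-/- cells its call was lost without Snf5-/- replicate 2 (0.0887) or 3 (0.0987), Brg1-/- replicate 2 (0.051) or 3 (0.0507), or WT replicate 1 (0.131) or 3 (0.0949). Mbtps1, the Golgi protease that makes the first cut in SREBP, averaged 1443 ± 158 in Snf5-/-, 1394 ± 148 in Brg1-/- and 1099 ± 9.66 in WT cells. Its rises of 0.39 (adjusted p = 0.0406) and 0.34 (0.0403) were 0.07 and -0.21 on the deposited scale. The Mbtps1 calls were lost in Snf5-/- cells in every fit that left out an array except Snf5-/- replicate 2 and Brg1-/- replicates 1 and 4 (0.0523 to 0.12), and in Brg1-/- cells without Brg1-/- replicate 3 or 4 or any WT array (0.0747 to 0.11). Me1, the malic enzyme that supplies NADPH, fell in Snf5-/- cells, at 1622 ± 480 in Snf5-/- and 2404 ± 175 in WT cells (-0.61, adjusted p = 0.0312). Its call was lost without Snf5-/- replicate 1 (0.0907) or 3 (0.0908), or any WT array (0.054 to 0.112). In Brg1-/- cells Ch25h, the cholesterol 25-hydroxylase, averaged 207 ± 66.4 in Brg1-/- and 550 ± 30.1 in WT cells (-1.48, 0.0224) and lost the call without Brg1-/- replicate 1 (0.0553) or any WT array (0.0581 to 0.0683). Npc2, a lysosomal cholesterol carrier, averaged 8407 ± 1023 in Brg1-/- and 10727 ± 421 in WT cells (-0.36, 0.0158) and lost it without WT replicate 1 (0.0584) or 2 (0.0561).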

How the data were processed

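Gene expression was measured on 10 Affymetrix arrays. Deposited values are linear intensity of probe sets, made with MAS5 per the submitters' processing notes, whose version, scaling target and filters are not stated there. Of the 22690 probe sets, 64 were controls. A single symbol in the annotation used belonged to 20380 probe sets and several symbols to 691, and 1606 were not listed in it.

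Intensity was taken to log2 without a pseudocount and quantile-normalized (limma 3.58.1, R 4.3.3). A probe set that was no control entered the fit if it reached its array's 40th percentile on 3 or more arrays. The model held 1 mean per group and left 7 residual degrees of freedom, and eBayes was run with the intensity trend. Tests were two-sided, with Benjamini-Hochberg adjustment within each of 3 comparisons. The fit was tested on simulated data. The number of arrays limits the precision. The brightest of 27 Bacillus subtilis controls served as an array's background level, a choice made after the data were seen. Dates and batches of the arrays are not given in the sources used here.

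Replicate numbers of different groups were not treated as pairs: over 9 same-numbered pairs of arrays, deviations from the group means correlated at -0.09 to 0.12, with 1 pair over 0.1. Values in every array are given for member probe sets past the threshold and for some others. In genes whose probe sets disagree, part of the other probe sets are given only as mean and SD or as changes. Up to 6 other pathway genes are named per comparison by smallest adjusted p. The members, lists and rules were chosen with earlier results of these data known. Alternatives were the deposited log2 values, arrays centred on their mean, no filter, a pseudocount of 16, 1 probe set per gene, the replicate block, no intensity trend, and each of the 10 arrays left out.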

Additional observations from a re-analysis of the deposited data

Results flagged for a closer look

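Among the 56 tested probe sets, 2 had 1 Brg1-/- array set apart from the other 3 by a gap, relative to the range, that chance gives in about 5% of groups of this size. Chance alone would give 2.8 of 56, so 2 is no more than that. For Hmgcs1 1433446_at, Brg1-/- replicate 3 read 1630, while the others read 1247 to 1303. For Srebf2 1426744_at, Brg1-/- replicate 4 read 705, while the others read 756 to 761. A further 2 results differed between the mutants by a direct test. The Brg1-/- minus Snf5-/- difference was 0.78 for Lss 1420013_s_at and -0.95 for Abca1 1421840_at on the normalized log2 scale.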

How the results depend on the processing

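Of the 25 member changes called on normalized values, 25 were kept with a pseudocount of 16, 21 with arrays centred on their mean, 20 with the replicate block, 18 without the intensity trend, 17 without the filter and 13 on the deposited scale. Counts of members moved as follows. In Snf5-/- against WT, 7 rose, against 1 on the deposited scale, and 2 to 7 with 1 array left out. There 5 fell, against 18 on the deposited scale, 2 without the filter, 3 with 1 probe set per gene, 2 without the trend, and 1 to 15 with 1 array left out. In Brg1-/- against WT, 7 rose, against 2 on the deposited scale and 4 to 10 with 1 array left out, and 4 fell, against 21 and 2 to 5. Between Brg1-/- and Snf5-/- cells 1 was higher, against 0 on the deposited scale, 0 without the filter, 0 without the trend and 0 to 4 with 1 array left out, and 1 was lower, against 2, 0, 0 and 0 to 1. The cause was not tested.

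With the replicate block 4 probe sets were higher in Brg1-/- than in Snf5-/- cells: Fdps (1.00, adjusted p = 0.0485), Hmgcs1 1433443_a_at (0.51, 0.0359) and 1433446_at (0.56, 0.0439) and Idi1 1451122_at (0.94, 0.0242). Since the numbers share no stated source, this is given as a value only. On the deposited scale the sign turned in Brg1-/- against WT for 23 of the 56 probe sets, among them Hmgcs1 1433443_a_at (-0.07), Ebp (-0.09), Scap (-0.07), Acly 1425326_at (-0.51) and Scd2 1415822_at (-0.48).

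Among all probe sets, calls came to 2425 in Snf5-/- against WT, and to 1466 without WT replicate 2, 1340 without WT replicate 3 and 1520 with 1 probe set per gene. For Brg1-/- against WT they came to 3650, and to 6675 on the deposited scale and 2331 with 1 probe set per gene. For Brg1-/- against Snf5-/- they came to 580, and to 384 with centred arrays, 319 without the trend, 367 with 1 probe set per gene and 128 to 806 with 1 array left out. The share of higher calls was 52.1%, 51.7% and 52.4% in these comparisons, and 13.7%, 6.98% and 13% on the deposited scale.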
